A study of Mus musculus with 6 samples.

Results

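The 10 genes described here encode proteins that bind, sense and move zinc. They are the metallothioneins Mt1 and Mt2, the zinc-sensing regulator Mtf1, the exporters Slc30a1 and Slc30a5, and the importers Slc39a1, Slc39a6, Slc39a7, Slc39a8 and Slc39a14. They were taken by symbol from the 16472 genes of the authors' deposited table, and were chosen by family and by their log2 fold changes in that same table, Slc39a8 being taken as clearly negative. All 10 had an adjusted p and a mean of at least 100 normalized counts, so no low-value filter removed any of them.

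The samples were cultures of HT22, an immortalised mouse hippocampal cell line, grown in serum-containing medium in multiwell plates. A group of 3 cultures was exposed to AA147, a compound that switches on ATF6, a factor of the unfolded protein response, and NRF2, a regulator of antioxidant genes, for 16 h, at a dose that the labels give as 10 mM. That unit could not be checked here and may be a slip for a micromolar dose. The other 3 cultures received the vehicle DMSO for 16 h, and all 6 yielded non-stranded mRNA libraries. The comparison asks which transcripts differ between the groups. The labels do not say whether the cultures came from separate passages, so the errors may measure technical spread only.

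Free zinc is kept very low in cells. Metallothioneins are small cysteine-rich proteins that bind zinc and copper and also react with oxidants. ZnT proteins, encoded by Slc30a genes, move zinc out of the cytosol into vesicles, the Golgi or the medium, while ZIP proteins, encoded by Slc39a genes, move it into the cytosol from outside or from organelles. MTF-1, the product of Mtf1, binds zinc when it is plentiful and then activates metallothionein genes and Slc30a1 through metal response elements in their promoters. Neurons depend on this balance because zinc is stored in some synaptic vesicles and is toxic in excess.

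The table gives each gene a single line without values of single libraries, so depth per library, values per sample and overlap between groups were not analysed here. The means of the authors' deposited table summed to 30768012 normalized counts, the size of an average library after scaling. The table does not name the numerator of its fold changes. Positive values are read as higher with AA147, because Nqo1, an NRF2 target, had a log2 fold change of 0.93 (SE 0.067) in the authors' deposited table; all directions below depend on that reading. Markers listed for neurons were mostly weak. Of 13, 5 were in the authors' deposited table, among which Tubb3 had a mean of 1199, Syn1 one of 562 and the other 3 means of at most 10.6, and 8 were not analysed here. Of 9 mesenchymal markers, 8 were listed, with means from 181 to 254004 in the authors' deposited table.

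The promoters of the genes that the results turn on are shown first, because Mt1 and Mt2 were both called positive and Slc30a1 is a known target of the same regulator. Sequences are RefSeq promoter windows of assembly GRCm38.p6, each with 250 bases before the annotated start and the first 30 bases after it, 5′ to 3′. Capitals mark matches to the metal response element, searched on both strands in the spellings TGCACNC and TGCGCNC, where N is any base. Slc39a8 has a pair of annotated starts, and the window with a match is shown. The windows lie on the plus strand at chr8:94178839-94179118 for Mt1, chr8:94172368-94172647 for Mt2, chr1:191906531-191906810 for Slc30a1 and chr3:135825407-135825686 for Slc39a8.
Mt1: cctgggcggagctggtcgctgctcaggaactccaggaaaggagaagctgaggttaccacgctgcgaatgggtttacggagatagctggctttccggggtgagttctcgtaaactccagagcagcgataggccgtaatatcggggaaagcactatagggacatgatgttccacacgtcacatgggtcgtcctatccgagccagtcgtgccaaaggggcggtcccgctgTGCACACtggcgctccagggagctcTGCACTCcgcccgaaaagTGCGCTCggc
Mt2: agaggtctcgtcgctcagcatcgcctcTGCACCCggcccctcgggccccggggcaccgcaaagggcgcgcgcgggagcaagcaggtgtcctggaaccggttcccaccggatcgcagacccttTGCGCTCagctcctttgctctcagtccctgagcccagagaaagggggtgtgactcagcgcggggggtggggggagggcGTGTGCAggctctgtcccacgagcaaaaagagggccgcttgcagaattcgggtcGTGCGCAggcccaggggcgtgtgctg
Slc30a1: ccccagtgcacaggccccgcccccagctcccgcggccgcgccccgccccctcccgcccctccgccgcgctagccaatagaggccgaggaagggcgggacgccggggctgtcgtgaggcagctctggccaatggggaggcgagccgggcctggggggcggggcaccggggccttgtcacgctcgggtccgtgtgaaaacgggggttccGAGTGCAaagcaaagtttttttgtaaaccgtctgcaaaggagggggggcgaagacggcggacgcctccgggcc
Slc39a8: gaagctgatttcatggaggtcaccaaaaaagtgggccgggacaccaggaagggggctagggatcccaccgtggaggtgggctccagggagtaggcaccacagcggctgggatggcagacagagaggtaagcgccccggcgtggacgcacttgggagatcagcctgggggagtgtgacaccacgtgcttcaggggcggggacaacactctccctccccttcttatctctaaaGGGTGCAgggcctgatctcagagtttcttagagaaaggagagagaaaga

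Within the windows searched, the metallothionein promoters held the most metal response element matches of the zinc genes. In windows of 300 bases, which run 50 bases past the start, Mt2 had 4 matches and Mt1 had 3. Slc30a1 had 2, of which the match at 31 to 37 bases after the start lies beyond the stretch shown, and Slc30a5 and the second Slc39a8 start had 1 each. Slc39a1, Slc39a7, Mtf1 and the first Slc39a8 start had 0. Among all 32851 windows of that table, 25.7% held at least 1 match, 1.31% at least 3 and 0.295% at least 4, with overlapping matches counted as 1. The antioxidant response element, searched as TGACNNNGC on both strands, was matched once in Mt2, Slc30a1, Slc30a5, Slc39a1 and the first Slc39a8 start, and in 12.4% of all windows. No match of that element overlapped a metal response element in these windows. Bases outside the windows were not searched and the annotated starts were not checked, so genes without a match here may have matches nearby. Of the 10 genes, 8 had a window, Slc39a6 and Slc39a14 being the others. The annotated starts of Mt2 and Mt1 lie 6471 bases apart on chromosome 8.

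**Figure D1:**
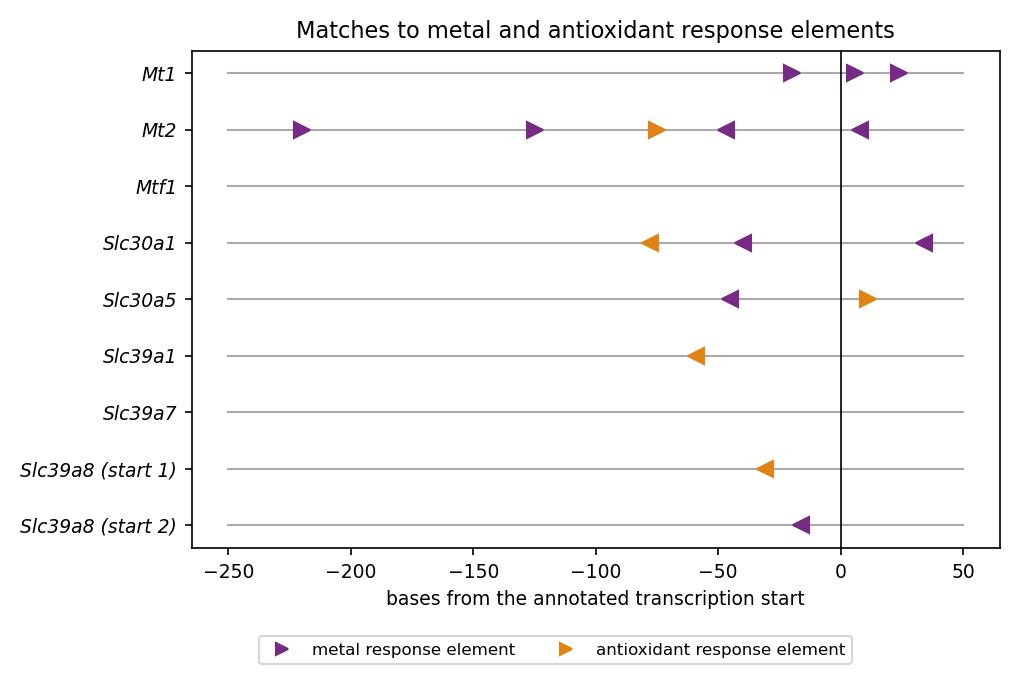
Position of sequence matches in 9 promoter windows of 8 zinc genes, in bases from the annotated start (x axis); purple marks metal response elements, orange marks antioxidant response elements, and triangles point along the matched strand. Mt2 has 4 metal response element matches spread over the window, while the 3 of Mt1 lie close to the annotated start. Bases outside the windows were not searched.

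Genes were also counted by the number of matches in the promoter. Called genes are those to which the authors' deposited table gives an adjusted p under 0.05. Of 224 tested genes with 3 or more metal response element matches in a window, 17 were called positive, 7.59%, and 34 negative, 15.2%. Over all 9587 tested genes with a window, 9.68% were called positive and 11.5% negative. This is a description over genes, which are not replicates.

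AA147 went with higher metallothionein transcripts and lower Slc39a8, while Mtf1 and the measured exporters were not called. In the authors' deposited table, 5 of the 10 genes were called, 3 positive and 2 negative, beside 20.2% of all 13597 genes with an adjusted p (9.05% called positive and 11.1% called negative). Among the 7864 genes with a mean within the range of the 10 genes, 24.5% were called, 11.7% positive and 12.8% negative. Since the genes were chosen with these values known, nothing is read from the count. Their log2 fold changes had a median of -0.06, against 0.01 over all tested genes.

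**Figure D2:**
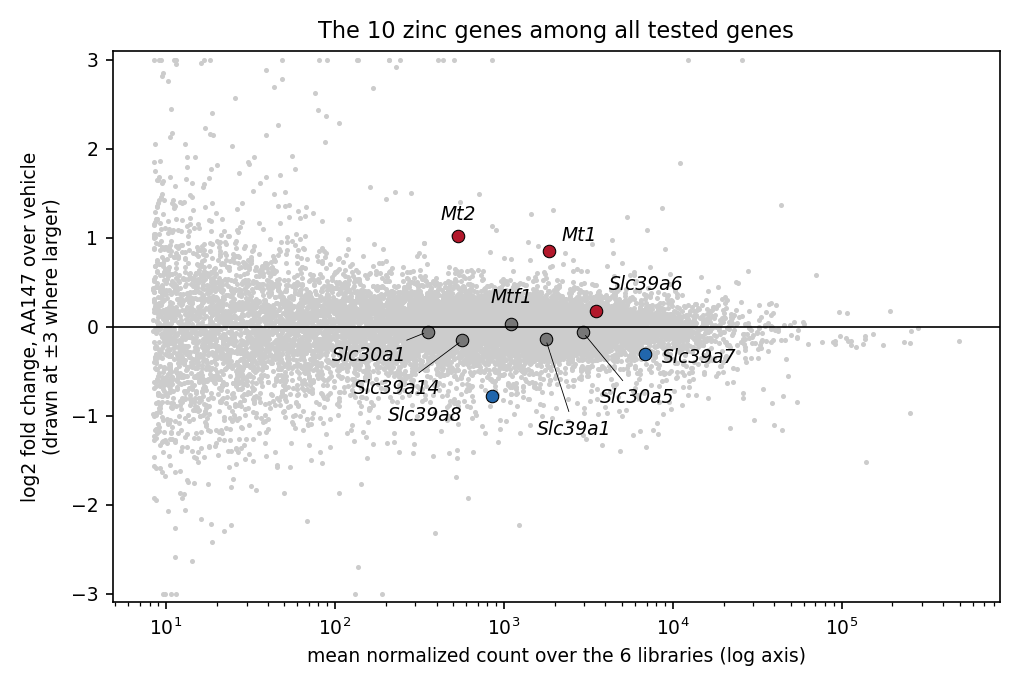
Mean normalized count over the 6 libraries (x axis, log scale) against log2 fold change (y axis) for all genes with an adjusted p (grey) and the 10 zinc genes (red called positive, blue called negative, dark grey not called). Mt1 and Mt2 lie above the bulk of genes with a similar mean and Slc39a8 below it, while the others lie closer to 0.

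Mt1 and Mt2 encode the widely expressed metallothioneins. In the authors' deposited table, Mt1 had a mean of 1841 normalized counts and a log2 fold change of 0.85 (SE 0.088, adjusted p 2.93e-20), a fold of 1.80 with a 95% interval of 1.60 to 2.03 from the SE. With 3 libraries in each group, that mean and fold imply group means of about 1314 with vehicle and 2368 with AA147. In the authors' deposited table, Mt2 had a mean of 533 and a log2 fold change of 1.01 (SE 0.115, adjusted p 6.86e-17), a fold of 2.02 with an interval of 1.73 to 2.36. Its implied means were 353 and 713. The intervals of the pair overlap, and the difference between their fold changes was not tested. By size of fold change, Mt2 ranked 32 and Mt1 ranked 44 from the highest of 10633 genes with a mean of at least 100. Summed over both genes, the implied level was 1667 with vehicle and 3081 with AA147, a ratio of 1.85. Per kilobase of transcript, Mt1 was 3.39 times as abundant as Mt2 over the 6 libraries. The other metallothionein genes, Mt3 of brain and Mt4 of stratified epithelia, were not analysed here.

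The 2 transcripts differ in how cleanly they can be counted without strand. In the GENCODE annotation, no other gene overlapped the exons of Mt1, and 0% of its 50-base words occurred in a transcript of another gene. Of the exonic bases of Mt2, 77.7% were overlapped by Gm45774, a non-coding gene on the opposite strand. Reads of that gene there could therefore not be told from those of Mt2. Of the 50-base words of Mt2, 62.9% occurred, on either strand, in a transcript of Gm45774 or Gm61019.

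Mtf1 encodes the zinc-sensing activator of these genes, and the authors' deposited table gave it a mean of 1106 and a log2 fold change of 0.03 (SE 0.091, adjusted p 0.889). The 95% interval runs from 0.90 to 1.15 on the fold scale. The activity of MTF-1 is set by zinc binding and its entry into the nucleus, which transcript counts do not measure.

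Slc30a1 encodes ZnT1, the exporter of the plasma membrane and a target of MTF-1. Its mean in the authors' deposited table was 354, the lowest of the 10 genes, and its log2 fold change was -0.06 (SE 0.127, adjusted p 0.814). On the fold scale the interval runs from 0.81 to 1.14, and its difference from Mt1 and Mt2 was not tested. Slc30a5 encodes ZnT5, which with ZnT6 supplies zinc to enzymes of the early secretory pathway. In the authors' deposited table, it had a mean of 2936 and a log2 fold change of -0.06 (SE 0.065, adjusted p 0.568), with an interval of 0.88 to 1.05 on the fold scale.

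The other measured ZnT genes were not called either. The authors' deposited table listed 6 of 10 Slc30a genes and 0 of them were called, beside 20.2% of all tested genes, and with 6 genes nothing is read from that count. Their log2 fold changes ran from -0.10 for Slc30a7 to 0.16 for Slc30a6. At an unadjusted p under 0.05 the count was also 0. Their median was -0.03. Slc30a4, an exporter into endosomes and lysosomes, had an SE of 0.193 in the authors' deposited table, 2.47 times what was typical at that mean, and its fold interval of 0.77 to 1.30 is wide.

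Slc39a8 encodes ZIP8, an importer that carries manganese, iron and cadmium besides zinc. The authors' deposited table gave it a mean of 851 and a log2 fold change of -0.78 (SE 0.091, adjusted p 9.77e-16). The fold was 0.58, with a 95% interval of 0.515 to 0.660, and the implied group means were 1076 with vehicle and 627 with AA147. It ranked 146 from the lowest of 10633 genes, and 144 called genes of that set had a lower value. Its exons were overlapped by no other gene in the annotation.

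Slc39a14 encodes ZIP14, the importer closest to ZIP8 in its range of metals. The authors' deposited table listed it with a mean of 569 and a log2 fold change of -0.15 (SE 0.123, adjusted p 0.428). Its log2 interval ran from -0.39 to 0.09, and its difference from Slc39a8, which was chosen for its negative value, was not tested. Per kilobase, the implied level of Slc39a8 was 281 with vehicle and 164 with AA147, and that of Slc39a14 was 115 and 104.

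Slc39a7 encodes ZIP7, which releases zinc from the endoplasmic reticulum. Its mean in the authors' deposited table was 6897, the highest of the 10 genes, with a log2 fold change of -0.31 (SE 0.058, adjusted p 2.08e-06). The fold was 0.81 with an interval of 0.74 to 0.87, and the implied means were 7638 and 6155. In the GENCODE annotation, 86.0% of its exonic bases are shared with Gm20427, a non-coding gene on the same strand, and how the authors' annotation divided such reads is not given in the sources used here.

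Slc39a6 encodes ZIP6, a plasma membrane importer that pairs with ZIP10. Its line in the authors' deposited table gave a mean of 3512 and a log2 fold change of 0.18 (SE 0.068, adjusted p 0.0435), the called gene nearest to the threshold. That call was lost at an adjusted p under 0.01, when the adjustment ran over all genes with a p (adjusted p 0.0520) and when fold changes were centred on the median of abundant genes (adjusted p 0.0669). In the authors' deposited table, Slc39a1, for the widely expressed plasma membrane importer ZIP1, was the nearest gene on the other side, at -0.14 (SE 0.078, adjusted p 0.220) with a mean of 1768. Of the exonic bases of Slc39a1, 27.9% were overlapped by a non-coding gene on the opposite strand.

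**Figure D3:**
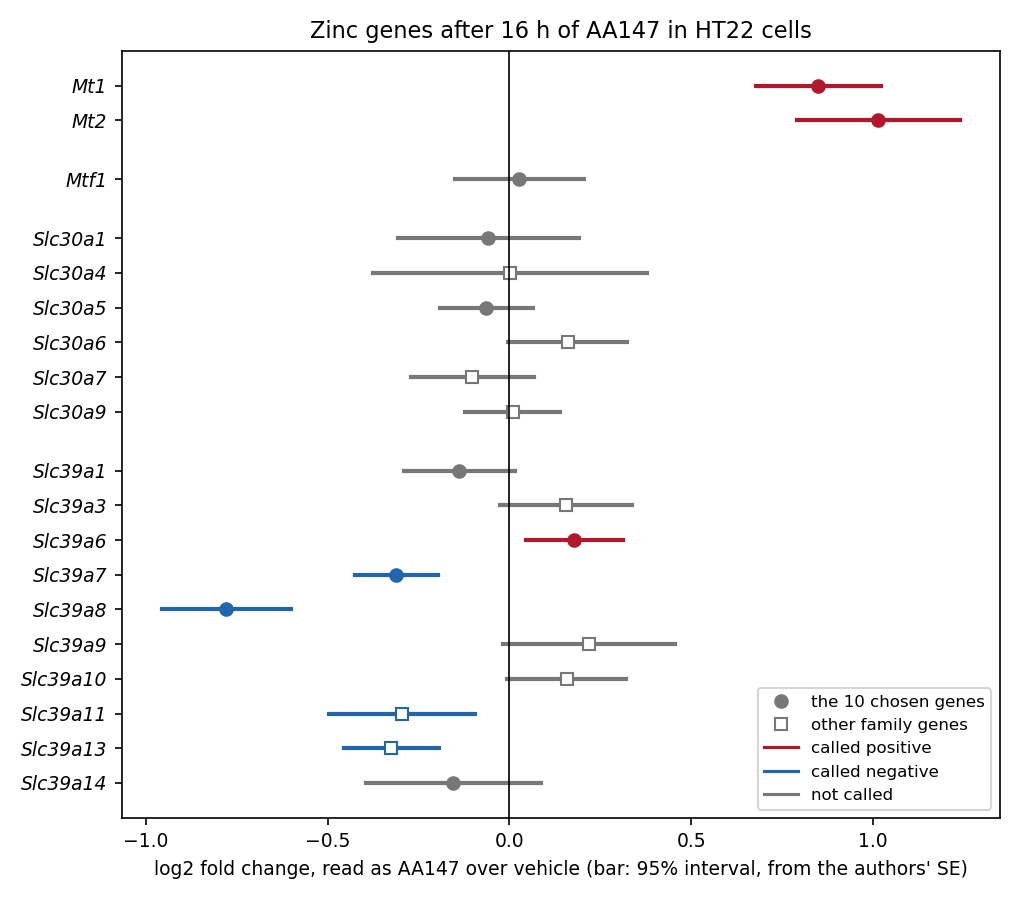
Log2 fold change (x axis) with its 95% interval for the 10 zinc genes (filled) and the other Slc30a and Slc39a genes with an adjusted p (open), coloured by call. Mt1 and Mt2 lie near 1, all 6 Slc30a genes have intervals that include 0, and 4 Slc39a genes were called negative, Slc39a8 the lowest.

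The whole ZIP family includes genes chosen for their values, so its count is a description. The authors' deposited table listed 11 of 14 Slc39a genes, 10 of them with an adjusted p, of which 4 were called negative and 1 positive, beside 11.1% and 9.05% of all tested genes. Without the chosen genes, 2 of 5 were called, both negative. All 10 ZIP genes with an adjusted p, the chosen ones included, had a median of -0.15. The 5 that were not chosen had a median of 0.16, of opposite sign, so no shift of the family is read from the -0.15. Outside the chosen genes the negative calls were Slc39a13, at -0.33 (SE 0.067, adjusted p 2.06e-05) with a mean of 3957, and Slc39a11, at -0.30 (SE 0.103, adjusted p 0.0246) with a mean of 912, in the authors' deposited table. ZIP13 is an intracellular importer needed for connective tissue, and ZIP11 is a less studied intracellular member. Slc39a9, Slc39a10 and Slc39a3 had values of 0.22, 0.16 and 0.16 in the authors' deposited table and were not called. Slc39a4, the intestinal importer, was listed without an adjusted p by the authors' deposited table, at a mean of 7.25 and a log2 fold change of 2.65 with an SE of 0.94; with the adjustment run over all genes with a p, it was called (adjusted p 0.0348). For both families together, 5 of 16 genes with an adjusted p were called, and 2 of 9 without the chosen genes, beside 20.2% of all tested genes.

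Most of the listed mesenchymal markers were called negative. Of the 8 listed, 6 were called negative and 0 positive in the authors' deposited table, beside 11.1% and 9.05% of all tested genes. Thy1, at -0.03, and Vim, at -0.08, were not called in the authors' deposited table. The log2 fold changes of the 8 markers had a median of -0.89. Their summed implied level was 765286 with vehicle and 424224 with AA147. Of the 5 listed neuronal markers, 2 had no adjusted p, and the 3 with one had a median of 0.13. Over all 5 the median was -0.44, the value of Camk2a at a mean of 10.6, with 3 negative and 2 positive values. The 1 call was that of Tubb3 at 0.43 in the authors' deposited table. The summed implied levels of all 5, 1587 and 1976, point the other way from the -0.44 because Tubb3 and Syn1 make up most of the sum. Only few markers of the other brain cell types were listed, 2 each for astrocytes, microglia and oligodendrocytes. The astrocyte pair summed to 1350 with vehicle and 559 with AA147, and the oligodendrocyte pair to 25.3 and 36.3. The microglial pair was called in opposite directions in the authors' deposited table, Csf1r at 0.95 with a mean of 48.0 and Tmem119 at -0.49 with a mean of 433, so that its summed levels of 539 and 423 follow Tmem119. The cultures were of a single cell line, HT22, and the markers were not used to count cell types. The part of these markers in the values of the zinc genes was not tested. In bulk libraries fewer cells of a type and less RNA per cell cannot be told apart.

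**Figure D4:**
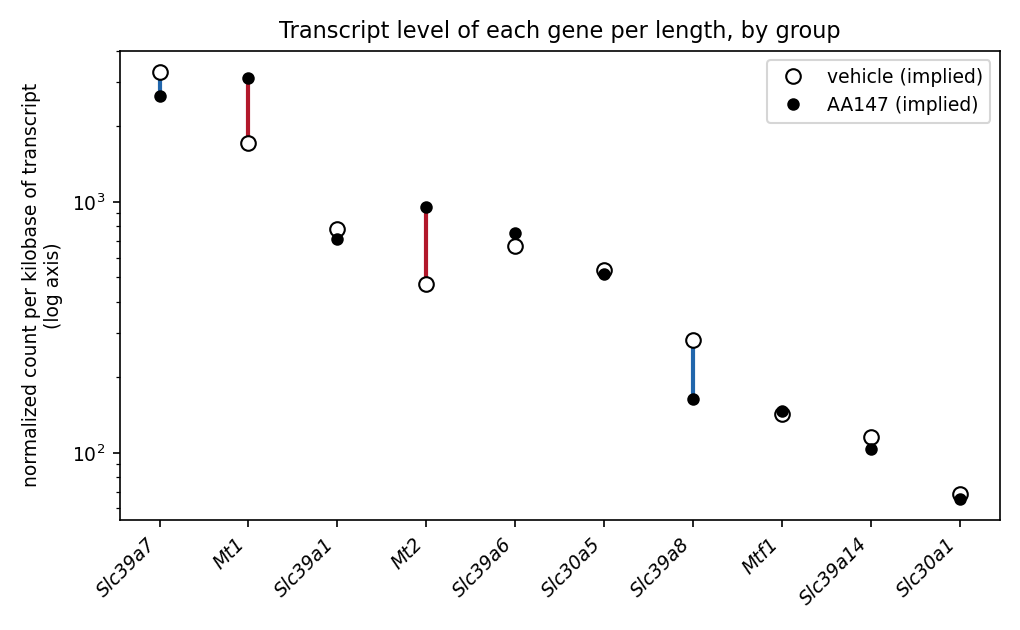
Implied normalized count per kilobase of transcript (y axis, log scale) with vehicle (open) and AA147 (filled) for the 10 zinc genes, ordered by level; coloured bars join the groups where the gene was called. Slc39a7 and Mt1 are the most abundant per length, and Slc30a1 the least.

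Per length, these genes spanned a wide range of levels. The level over the 6 libraries ran from 67.0 normalized counts per kilobase for Slc30a1 to 2973 for Slc39a7, against a median of 265 over tested genes with a known length. Mt1 followed Slc39a7 at 2416, and Slc39a1 at 746, Mt2 at 713 and Slc39a6 at 708 formed a close group. Slc30a5 lay at 526, Slc39a8 at 223, Mtf1 at 145 and Slc39a14 at 109. The implied levels of Mt1 changed from 1724 to 3108 per kilobase with AA147 and those of Slc39a7 from 3292 to 2653, so that their order differed between the groups. The spread over libraries behind this order was not analysed here, and neighbours in it were not tested.

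The wider set of MTF-1 targets includes Mt1, Mt2 and Slc30a1. The authors' deposited table listed all 8 of its genes, 4 called positive and 0 negative, beside 9.05% and 11.1% of all tested genes, and their median was 0.22. Mt1, Mt2 and Slc30a1 were chosen with these values known, so nothing is read from that count or median. Without the chosen genes, the median was 0.16, that of Slc39a10, and 2 of 5 were called positive. Besides Mt1 and Mt2 these were Gclc, for the first enzyme of glutathione synthesis, at 0.32 (SE 0.070), and Csrp1, for a zinc-binding LIM protein, at 0.28 (SE 0.093), in the authors' deposited table. Gclc is also a well-known NRF2 target. Slc39a10, which MTF-1 is known to repress, was at 0.16 (SE 0.083), Ndrg1, with the highest mean of the list, at -0.02 (SE 0.064), and Sepw1 at -0.09 (SE 0.104) in the authors' deposited table, and none of these 3 was called. Among the other zinc genes, Cbwd1, for a zinc metallochaperone, was called at 0.33 (SE 0.104, adjusted p 0.0123) and Trpm7, for a channel that passes zinc, was at 0.00 (SE 0.082) in the authors' deposited table.

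Copper, iron and manganese genes were described beside them because metallothioneins also bind copper, and ZIP8 and ZIP14 also carry iron and manganese. The authors' deposited table listed 10 of 13 copper genes, 1 called positive and 2 negative, beside the same shares of all tested genes, and their median was -0.06. The negative calls were the copper chaperone Atox1 at -0.36 (SE 0.071) and Commd1, which acts in copper export, at -0.31 (SE 0.071), and the positive call was Cox17, which supplies copper to cytochrome oxidase, at 0.40 (SE 0.139) in the authors' deposited table. The importer Slc31a1 was not called, at -0.08 (SE 0.072), nor was the metalloreductase Steap3, with the highest mean of the list, at 0.06 (SE 0.062), in the authors' deposited table.

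The iron and manganese genes had a median of 0.18 over 8 of 9 genes in the authors' deposited table. Of these, 4 were called positive and 1 negative, beside 9.05% and 11.1% of all tested genes. The ferritin chains Fth1 and Ftl1 were at 0.58 (SE 0.070) and 0.50 (SE 0.068), the transferrin receptor Tfrc at 0.58 (SE 0.071) and the iron and manganese importer Slc11a2 at 0.20 (SE 0.072) in the authors' deposited table. The negative call was Tmem165, a Golgi protein of manganese balance, at -0.28 (SE 0.062) in the authors' deposited table. Slc11a2 was called positive where Slc39a8, which carries the same metals among others, was called negative. The authors' deposited table gave Slc11a2 an adjusted p of 0.0333, nearer to the threshold than the 9.77e-16 of Slc39a8.

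**Figure D5:**
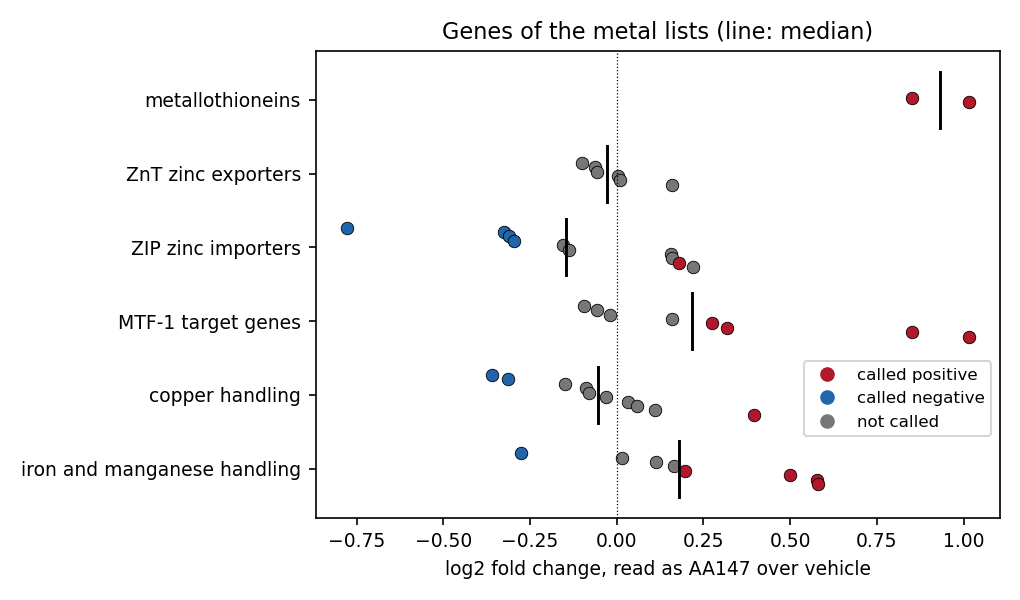
Log2 fold change (x axis) of each gene with an adjusted p in 6 lists of metal genes; points are genes, coloured by call, and black lines are medians. The metallothioneins have the highest median, 0.93, the ZIP genes the lowest, -0.15, and some genes appear in more than 1 list. These lists, and also the ZnT genes and the MTF-1 targets, include genes chosen for their values. The ZIP genes that were not chosen had a median of 0.16, the MTF-1 targets 0.16 and the ZnT genes 0.01.

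The errors of the 10 genes were ordinary for their level. Their SEs ran from 0.058 to 0.127 and were 0.93 to 1.14 times the median SE at a similar mean. A 95% interval that included 0 was found for 5 of the 10 genes, namely Mtf1, Slc30a1, Slc30a5, Slc39a1 and Slc39a14.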

How the data were processed

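Only the authors' gene-level comparison of 3 AA147 and 3 vehicle libraries was used. Per the submitters' processing notes it was made with DESeq2 and build mm9; the aligner, counter, annotation and filters are not given in the sources used here. Per the file headers, the authors deposited a mean normalized count (a signal averaged over libraries), a log2 fold change with its SE, a score (the Wald statistic), the p-value, and its adjusted p-value. The score equalled the log2 fold change over its SE within 3.06e-07. An adjusted p was given for 13597 genes and not for 2875, which stayed without a call.

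Implied group means were computed from the mean and fold change for equal group sizes, and 95% intervals as 1.96 SE on either side under a normal error. Transcript lengths, overlaps and 50-base words came from canonical transcripts of GENCODE release M39 (GRCm39), which is not the authors' build and was used for no coordinates. Lengths were known for 85.9% of tested genes. SEs were compared with the median over about 200 genes nearest in mean. Promoters came from RefSeq windows. The symbols Selenow and Zng1 were found under the older names Sepw1 and Cbwd1.

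The genes and lists were chosen with earlier results of these data known. Named genes were the 10 genes, the called genes of the other lists and the gene with the highest mean in each list; Slc39a3, Slc39a4, Slc39a9, Slc39a10, Slc30a4, Slc30a6, Slc30a7, Slc31a1, Sepw1, Nqo1 and single markers were named after their values were seen. Alternatives were a stricter adjusted p, other sets of genes in the adjustment, centring, and omission of genes with a high SE. Depth per library is unknown. The code for calls was tested on simulated data. Python 3.11.15, pandas 2.3.3 and SciPy 1.17.1 were used.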

Additional observations from a re-analysis of the deposited data

How the results depend on the processing

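No paired analysis was possible because values of single libraries were not analysed here, and for the same reason no replicate could be left out in turn. The count of 2741 called genes became 1818 at an adjusted p under 0.01 and lay between 2641 and 2708 under the other 3 alternatives. The count over both transporter families, 5, became 3 at an adjusted p under 0.01, where Slc39a6 and Slc39a11 were lost. It was 4 or 5 otherwise. With the adjustment over all genes with a p it stayed at 5, Slc39a6 being lost (adjusted p 0.0520) and Slc39a4 gained (adjusted p 0.0348). The count of 5 of the 10 genes was 4 or 5 under each alternative, Slc39a6 being the gene lost. Centred on the median of abundant genes, which shifts values by 0.01, Slc39a6 had a log2 fold change of 0.17 and was not called (adjusted p 0.0669), because its adjusted p of 0.0435 lay near the threshold; the other 9 genes kept their sign and their side of the threshold. Omitting genes whose SE was at least 1.5 times that of genes with a similar mean, an alternative chosen after the data were seen, changed neither count.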
